A study of Mus musculus with 6 samples.

Results

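Epithelial junction and keratin genes were examined as a set of 10 genes in 6 populations of cultured mouse muscle-derived stem/progenitor cells (MDSPCs), which are slowly adhering cells enriched from dissociated skeletal muscle by repeated transfer to fresh collagen-coated flasks. The set was given by name: the claudins Cldn3, Cldn4, Cldn6 and Cldn7, the scaffold Tjp1, the adhesion molecules Epcam and Cdh1, and the keratins Krt8, Krt18 and Krt19. All 10 were among the 21485 gene identifiers that the 6 deposited matrices share. The set was put together because Cldn4 was high in 1 old population, that is, the genes were chosen by name around the CPM of Cldn4 per sample. The level of Cldn4 is therefore given as a description and no test is read from it. Of the populations, 3 were labelled young and 3 old, all grown in proliferation medium without further treatment and profiled by droplet-based 3′ single-cell RNA sequencing. The labels give no age, sex, strain or genotype of the mice and do not say whether a population came from 1 animal, so the spread between replicates is that between these cultures. Each population is 1 replicate, and old replicate 2 means the library with that number in the labels.

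Tight junctions seal neighbouring epithelial cells to each other. Claudins form their paracellular strands, the scaffold protein ZO-1 encoded by Tjp1 ties the strands to actin, and E-cadherin (Cdh1) and EpCAM hold the cells together. Keratins 8 and 18 pair as the type II and type I partner of the intermediate filaments of simple epithelia, and keratin 19 is a further type I keratin of ducts and other simple epithelia. Muscle progenitors normally rely on N-cadherin (Cdh2) and M-cadherin (Cdh15) for adhesion, and on desmin and vimentin filaments. ZO-1 is also made in many cells that have no tight junctions.

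Cldn4 and Cldn3 lie near each other in the genome, as do Krt8 and Krt18, and the DNA around their starts is shown because Cldn4 and Krt18 varied more between libraries than the other gene of each pair. On the mouse build GRCm38, Cldn4 is a single-exon gene on the minus strand at chr5:134945119-134946934. Cldn3, also a single-exon gene, lies 39.3 kb away on the plus strand at chr5:134986214-134987472. Krt8 (chr15:101996698-102004482, minus strand) and Krt18 (chr15:102028180-102032027, plus strand) face away from each other with a gap of 23.7 kb. RefSeq promoter windows of GRCm38.p6, which run from 250 bases before to 50 bases after a start, were at hand for 8 of the 10 genes. Capitals mark every match, on either strand, to an AP-1 site (TGANTCA), the E-box CAGCTG read by Myod1 and Myog, the E-box CACCTG read by Snai and Zeb factors, a GC box (GGGCGG) or a TATA box (TATAAA); matches may overlap.
Cldn4 (chr5:134946885-134947184, minus strand): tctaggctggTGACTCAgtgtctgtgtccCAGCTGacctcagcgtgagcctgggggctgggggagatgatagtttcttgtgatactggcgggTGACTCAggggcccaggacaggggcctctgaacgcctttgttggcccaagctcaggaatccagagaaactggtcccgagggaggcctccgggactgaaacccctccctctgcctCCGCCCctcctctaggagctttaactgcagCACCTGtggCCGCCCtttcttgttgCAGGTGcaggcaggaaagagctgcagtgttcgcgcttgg
Cldn3 (chr5:134985964-134986263, plus strand): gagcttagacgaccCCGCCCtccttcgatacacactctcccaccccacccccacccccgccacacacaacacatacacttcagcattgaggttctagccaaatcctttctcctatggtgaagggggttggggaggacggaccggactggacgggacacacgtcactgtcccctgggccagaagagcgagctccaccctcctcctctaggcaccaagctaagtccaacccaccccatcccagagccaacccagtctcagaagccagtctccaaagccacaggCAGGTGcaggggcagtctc
Krt8 (chr15:102004293-102004592, minus strand): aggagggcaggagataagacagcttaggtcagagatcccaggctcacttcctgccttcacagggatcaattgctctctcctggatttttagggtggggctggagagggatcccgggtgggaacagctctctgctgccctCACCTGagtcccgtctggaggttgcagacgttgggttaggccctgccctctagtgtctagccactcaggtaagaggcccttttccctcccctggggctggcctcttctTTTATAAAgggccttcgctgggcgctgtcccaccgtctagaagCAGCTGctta
Krt18 (chr15:102027966-102028265, plus strand): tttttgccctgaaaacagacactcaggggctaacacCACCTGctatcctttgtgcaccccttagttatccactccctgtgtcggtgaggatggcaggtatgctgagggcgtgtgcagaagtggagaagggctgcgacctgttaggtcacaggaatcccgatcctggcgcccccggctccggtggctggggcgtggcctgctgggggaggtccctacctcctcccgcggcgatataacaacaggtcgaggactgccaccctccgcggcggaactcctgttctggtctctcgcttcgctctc
The Cldn4 window held 2 AP-1 matches, at bases 11 and 93 from its 5′ end, 1 CAGCTG, 2 CACCTG and 2 GC boxes. The Cldn3 window held 1 CACCTG and 1 GC box, and no AP-1 match or CAGCTG. Among all 32851 promoter windows in the table, 7.81% held an AP-1 match and 0.460% held 2 or more, while 16.3% held CAGCTG, 20.2% CACCTG, 35.7% a GC box and 13.6% a TATA box. No AP-1 match lay in the other windows of these genes, and the TATA matches were both in Krt8. A match describes the letters only.

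The depth was high in every library. Kept cells numbered 8674, 10805 and 10779 in the young populations (replicates 1, 2 and 3), and 10147, 8722 and 12538 in the old ones. Their median depth lay between 13007 and 19953.5 unique molecular identifiers (UMIs), each UMI being 1 counted RNA molecule. Levels are given in CPM, the UMIs of a gene scaled to the library total over the shared genes. Shares of cells depend on depth, so cells were also thinned at random to 5000 UMIs, which left out between 148 and 370 shallower cells a library. Any pair of libraries shared between 23 and 35 cell barcodes, at most 0.369% of the smaller library. All 10 myogenic markers (among them Myod1, Myog and Des) were above 1 CPM in at least 1 library of each group. Their summed level ran from 312 to 2294 CPM in young and from 310.2 to 3709 CPM in old libraries. Of 10 keratinocyte and gland markers, all 10 in young and 9 in old libraries were under 1 CPM throughout. Their sum ran from 0.791 to 1.67 CPM in young and from 1.40 to 4.83 CPM in old libraries.

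**Figure D1:**
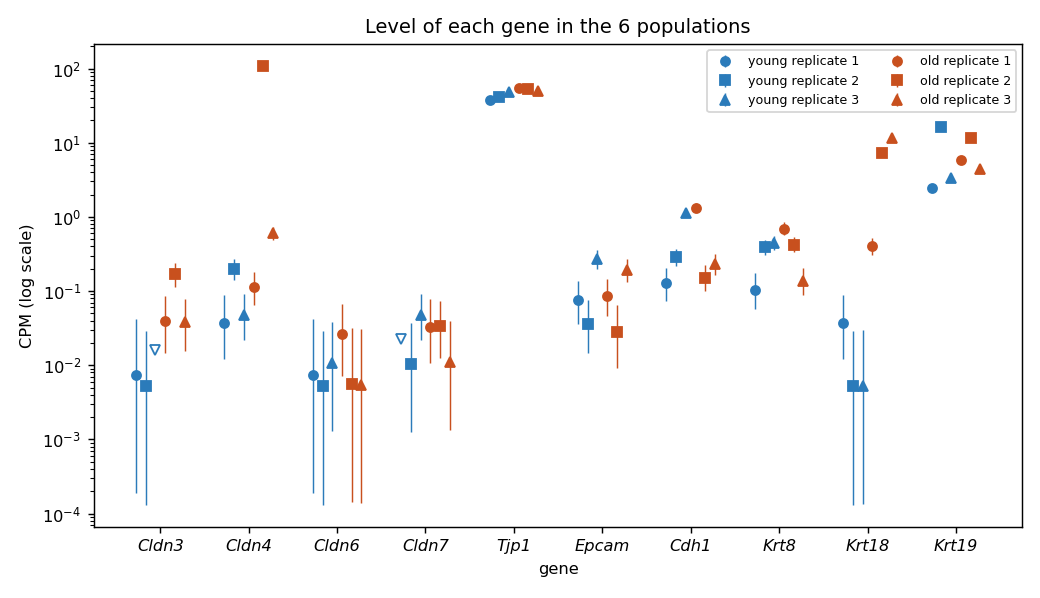
Level of the 10 genes in CPM on a log axis, 1 point per library with its exact 95% Poisson counting interval; open triangles stand at 3 counts where no UMI was seen. Cldn4 stands at 107 CPM in old replicate 2 and under 1 CPM in the other 5, Krt18 is above 5 CPM in old replicates 2 and 3 only, and Tjp1 lies between 37.5 and 55.4 CPM everywhere.

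Cldn4 was the claudin that set 1 population apart. Its level was 0.0374, 0.197 and 0.0477 CPM in young replicates 1, 2 and 3, from 5, 38 and 9 UMIs. Old replicates 1, 2 and 3 had 0.112, 107 and 0.602 CPM, from 17, 18976 and 110 UMIs. Old replicate 2 was thus 177 times the next highest library, old replicate 3, with a 95% counting interval of 147 to 216. The young and the other old libraries overlapped, since old replicate 1 lay below young replicate 2. In old replicate 2 a Cldn4 UMI was seen in 5986 of 8722 cells, or 68.6%, against 0.0461% to 0.758% in the other 5 libraries. After thinning to 5000 UMIs the share was 36.1% in old replicate 2 and between 0.0118% and 0.296% elsewhere. An even spread of its UMIs over cells by depth would have given 85.1% of cells with a UMI at full depth and 41.6% after thinning, so the transcript was in most cells but not evenly spread. At full depth, 1707 cells held 1 Cldn4 UMI, 1401 held 2, 915 held 3 and 866 held 6 or more, up to 28 in a cell.

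The other epithelial claudins stayed near the detection limit in all 6 libraries, old replicate 2 included. Cldn3, which like Cldn4 encodes a receptor of Clostridium perfringens enterotoxin, was at 1, 1 and 0 UMIs in young and 6, 30 and 7 UMIs in old replicates 1, 2 and 3. Its highest level, 0.169 CPM with an interval of 0.114 to 0.241, was in old replicate 2. The count of 0 in young replicate 3 allows up to 0.0159 CPM, taking 3 counts as the limit. Every old library was above every young one for Cldn3, a pattern of 5.22% of all genes tested, but the young ones held at most 1 UMI. Cldn3 itself was too low to enter the test. Of the 30 cells of old replicate 2 with a Cldn3 UMI, 25 also held a Cldn4 UMI, in a library where 68.6% of all cells did. Cldn6, an early embryonic claudin, gave between 1 and 4 UMIs in each library. Cldn7 gave between 0 and 9 UMIs, and its 0 in young replicate 1 allows up to 0.0225 CPM by the same limit. Neither Cldn6 nor Cldn7 separated old from young, as their libraries overlapped. Because Cldn3 overlaps another annotated gene, as do Tjp1 and Krt8, reads there may be split between the annotations.

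Within the set, Tjp1 had the narrowest range of levels over the populations, taken as the ratio of highest to lowest. It stood at 37.5, 41.8 and 48.5 CPM in young replicates 1, 2 and 3, while old replicates 1, 2 and 3 had 55.4, 52.5 and 49.2 CPM. The mean was 42.6 CPM ± 5.55 (SD, n = 3) in young and 52.3 CPM ± 3.07 (SD, n = 3) in old libraries. All 3 old libraries were above all 3 young ones, by a narrow margin between old replicate 3 and young replicate 3. In edgeR's quasi-likelihood test over all genes its log2 fold change, old over young, was 0.22 (SE 0.18, adjusted p = 0.9998), which did not pass. Between 16.5% and 23.4% of thinned cells held a Tjp1 UMI, close to the 17.1% to 24.6% that an even spread would give.

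The adhesion genes of epithelia were low throughout and did not follow Cldn4. Epcam, a surface glycoprotein of epithelial cells, ran from 0.0362 to 0.270 CPM in young and from 0.0282 to 0.192 CPM in old libraries, and it was lowest in old replicate 2. Cdh1 was at 0.127, 0.284 and 1.13 CPM in young replicates 1, 2 and 3. Old replicates 1, 2 and 3 had 1.33, 0.152 and 0.230 CPM. Young replicate 3 and old replicate 1 were both high, so the groups overlapped, but the UMIs lay differently in the cells. In young replicate 3 the 213 UMIs came from 198 cells with at most 3 in a cell. In old replicate 1 the 201 UMIs came from 70 cells, and 29 cells with 3 or more UMIs held 150 of them, up to 14 in a cell. None of those 29 cells held an Epcam or Krt8 UMI. Only 0.128% and 0.798% of all cells of that library did, so none among 29 does not set these cells apart. This cell class was chosen after its values were seen.

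The levels of the keratin pair also differed in their order over the libraries. Krt18 was at 0.0374, 0.00517 and 0.00529 CPM in young replicates 1, 2 and 3, from 5, 1 and 1 UMIs. Old replicates 1, 2 and 3 had 0.403, 7.24 and 11.6 CPM, from 61, 1286 and 2117 UMIs. All 3 old libraries were above all 3 young ones, and old replicates 2 and 3 were well above old replicate 1. Krt8, its usual partner, was at 0.105, 0.388 and 0.445 CPM in young and 0.694, 0.422 and 0.137 CPM in old replicates 1, 2 and 3. The library with the most Krt18, old replicate 3, was thus the lowest old library for Krt8, and young and old overlapped. A UMI of both keratins was seen in 4 cells of old replicate 1, where 34 cells held Krt18 and 81 held Krt8. It was seen in 11 cells of old replicate 2, where 427 cells held Krt18 and 69 held Krt8, and in 6 cells of old replicate 3, where 1355 held Krt18 and 25 held Krt8. Both genes were in few cells. Krt8 was in 0.798%, 0.791% and 0.199% of all cells of old replicates 1, 2 and 3. At full depth it was thus more frequent among Krt18-positive cells, but deeper cells more often show both genes. The counts expected from depth were not computed. After thinning, Krt8 was seen in 0.556% of Krt18-positive and 0.180% of negative cells of old replicate 2. In old replicate 3 the shares were 0.177% and 0.0259%. Each positive share came from 1 cell, and both intervals of the difference span 0. In old replicate 2 the Krt18 UMIs were concentrated in few cells, with 2.12% of thinned cells positive against 3.30% under an even spread and up to 36 UMIs in a cell. In old replicate 3, 4.64% of thinned cells were positive against 5.67% under an even spread.

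Krt19 was present in every population and followed neither age nor the other keratins. Its level was 2.47, 16.2 and 3.38 CPM in young replicates 1, 2 and 3, and 5.90, 11.6 and 4.47 CPM in old replicates 1, 2 and 3. Young replicate 2 was highest and old replicate 2 second. The mean was 7.34 CPM ± 7.66 (SD, n = 3) in young and 7.32 CPM ± 3.76 (SD, n = 3) in old libraries. Between 1.05% and 7.11% of thinned cells held a Krt19 UMI, with young replicate 2 again highest.

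Few cells combined several of these transcripts, most of which were seen in few cells to begin with. Small joint counts therefore do not show that the genes were expressed apart, and the counts expected under independence were not computed. Leaving Tjp1 aside, 3 or more of the 9 other genes were seen together in 0, 0 and 1 cells of the young replicates in order, and in 3, 113 and 5 cells of the old ones. In old replicate 2, 5 cells held 4 of them, and no cell of any library held more. Without Cldn4 and Krt19, no cell of any library held 3 or more of the other 7 genes, and 2 or more were seen in 0, 0 and 7 young and 7, 18 and 21 old cells. In old replicate 2, 325 cells held both Cldn4 and Krt18, and in old replicate 3, 18 did. Krt18 and Krt19 were seen together in 4, 111 and 120 cells of old replicates 1, 2 and 3. Cdh1 and Epcam were seen together in 2 cells, both in young replicate 3.

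The comparison of old with young populations asks which transcripts change with donor age. Across 15064 genes tested with edgeR, 1 gene passed an adjusted p of 0.05, Cyba, a subunit of NADPH oxidase, which is 0.00664% of the genes tested. Of the 10 genes, 7 passed the filter on low counts. Leaving aside Cldn4, whose test is not read, 0 of the other 6 (Tjp1, Epcam, Cdh1, Krt8, Krt18 and Krt19) were called, and their median log2 fold change was 0.15 beside -0.01 over all genes tested. At an unadjusted p under 0.05, 560 genes passed. Among those 6, Krt18 was the 1 that did, with a log2 fold change of 8.39 (SE 2.15, unadjusted p = 0.00884, adjusted p = 0.9998 in edgeR, and no lower than 0.4998 under any edgeR alternative run). DESeq2 on the same sums called 237 genes, 1.57% of those tested, and gave Krt18 an adjusted p of 6.7e-08, so its call rests on the tool. Krt18 and Tjp1 were the 2 of the 6 with all old libraries above all young ones, a pattern of 5.22% of all genes tested, while 0.903% had all old libraries below all young ones and none of the 6 did. The fitted fold change of Krt18 stands against young libraries of 1 to 5 UMIs, and it ran from 6.67 without young replicate 3 to 10.70 without old replicate 1. With so few young UMIs, Krt18 passed the filter on low counts through its old libraries. The genes were also chosen with earlier results of these data known. The p-values of Krt18 are therefore given as a description and not as support. The direction for Epcam, Cdh1, Krt8 and Krt19 turned when single libraries were left out.

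In the wider junction and keratin program no gene passed, which does not show that old and young were alike, since the test called 1 gene in all. The genes tested in the 4 lists were 10 of 18 other claudins and claudin-like genes, 16 of 18 other tight junction genes, 16 of 19 adherens junction and desmosome genes, and 10 of 18 other keratins and plakins. Their median log2 fold changes were -0.10, -0.03, -0.09 and -0.06, beside -0.01 over all genes tested. Nor did any pass among 22 tested genes of epithelial regulators and surface proteins, with a median of 0.79. The most abundant of the other claudins was the claudin-domain gene Cldnd1, between 69.3 and 145 CPM, followed by Cldn12, between 6.78 and 19.1 CPM. Of the 17 used here, 13 were under 1 CPM in every library. Among other keratins Krt10, up to 47.5 CPM in old replicate 3, and Krt13, between 0.771 and 76.5 CPM with young replicate 2 highest, were the most abundant. The β-catenin gene Ctnnb1, between 176 and 287 CPM, and the α-catenin gene Ctnna1 led the adherens junction genes. Neural cadherin Cdh2, the cadherin of mesenchymal cells and muscle progenitors, ran from 127 to 263 CPM, and vimentin (Vim) from 1966 to 4019 CPM.

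Desmoplakin (Dsp), which anchors keratin filaments at desmosomes, showed levels like those of Krt18; it was singled out after its values were seen. It was at 0.00748, 0.0259 and 0 CPM in young replicates 1, 2 and 3, whereas the old ones, in that order, had 0.145, 0.952 and 2.07 CPM. All old libraries were above all young ones, a pattern of 5.22% of all genes tested, and the old ones were in the same order as for Krt18. Within libraries Dsp was at 1.11 CPM in cells with and 1.08 CPM in cells without a Krt18 UMI in old replicate 2, and at 1.77 and 1.76 CPM in old replicate 3. The log2 difference was -0.01 with an SE of 0.72 (edgeR adjusted p = 0.998). The Dsp values of the Krt18-positive cells and of the young libraries rest on few UMIs.

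The level of Cldn4 in old replicate 2 sets any correlation with it over the 6 libraries. The genes most like Cldn4 in level therefore all had their maximum in that library. Among 8576 genes with a mean log2 CPM above 3, they were Zbtb33 (Pearson r = 0.996 on log2(CPM + 1), n = 6), Tmem167b, Snf8, Tmem185a and Bicd2 (r = 0.984). Without old replicate 2, r was 0.796 for Bicd2, 0.768 for Zbtb33, 0.738 for Tmem185a, 0.653 for Tmem167b and -0.287 for Snf8 (n = 5). Snf8, a subunit of the ESCRT-II sorting complex, stood at 268 CPM in old replicate 2 and between 125 and 133 CPM elsewhere, a much smaller step than that of Cldn4.

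The genes around Cldn4 differed far less in old replicate 2 than Cldn4 did. Of 26 genes within 500 kb, 18 were above 1 CPM in some library. On the log2(CPM + 1) scale, old replicate 2 minus the mean of the other 5 libraries was 6.51 for Cldn4. For the 18 neighbours this difference had a median of 0.08, from -0.26 for Lat2, a lymphoid adaptor, to 1.15 for Vps37d, an ESCRT-I subunit. Abhd11, a mitochondrial hydrolase gene 62.2 kb from Cldn4, differed by 1.14. Old replicate 2 also had raised medians over whole chromosomes. Its genes on chromosome 5 were 0.38 and those on chromosome 11 were 0.47 above the other libraries on that scale, against 0.07 over all genes. Krt19 and Cldn7 are on chromosome 11. The part of these shifts in the levels of Cldn4, Cldn7 and Krt19 was not tested.

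**Figure D2:**
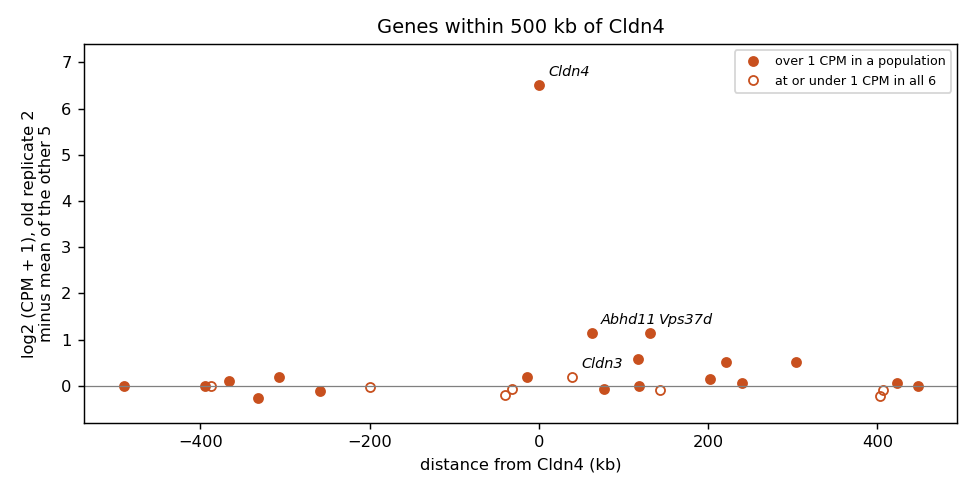
Difference in log2(CPM + 1) between old replicate 2 and the mean of the other 5 libraries (y axis) by distance from Cldn4 in kb (x axis), 1 point per gene; open points are genes at or under 1 CPM in all 6 libraries. Cldn4 stands at 6.51, and no neighbour is above 1.15.

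Within old replicate 2, cells with a Cldn4 UMI more often held Myod1, the myogenic determination factor, and less often held the proliferation marker Mki67. At 5000 UMIs a cell, 3071 cells were positive for Cldn4 and 5439 were negative; no other library had 50 positive cells, so these are values of 1 library with counting intervals and no test over samples. Myod1 was seen in 81.0% of positive and 71.0% of negative cells, a difference of 9.98 percentage points (95% Newcombe interval 8.12 to 11.8), which became 15.7 points at full depth. Cdkn1a, which encodes the cell-cycle inhibitor p21, was seen in 97.5% and 94.1%, a difference of 3.43 points (2.57 to 4.25), which became 2.07 points at 8000 UMIs. Myog, the differentiation factor that follows Myod1, was seen in 15.1% and 14.1%, and the interval of the difference, -0.592 to 2.55 points, spans 0. Mki67 was seen in 8.73% and 15.4%, a difference of -6.68 points (-8.05 to -5.27), which ran from -9.75 to -3.58 points over the alternatives.

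The share of cells with Mki67 was lower at each step in the number of Cldn4 UMIs. It was 15.4%, 10.3%, 6.11% and 4.55% in cells with 0, 1, 2 and 3 or more Cldn4 UMIs. The share with Myod1 was 71.0%, 80.1%, 82.6% and 82.5%, and that with Cdkn1a, found in nearly all cells, was 94.1%, 97.2%, 98.1% and 98.1%. By level, Cdkn1a was at 1590, 1746, 1992 and 1770 CPM, highest in cells with 2 Cldn4 UMIs. The share with Myog, 14.1%, 15.3%, 15.01% and 13.6%, had no steady direction. In CPM, Myod1 rose along these classes from 429 to 542, 595 and 614, while Myog was at 192, 169, 164 and 105.2. Turned around, Cldn4 stood at 117 CPM in cells with a Myod1 UMI and at 78.5 CPM in cells without one. It stood at 62.6 CPM in cells with Mki67 and 114 CPM in cells without. Cells without a Cdkn1a UMI, 397 in all, had 51.4 CPM of Cldn4 against 110.3 CPM in the rest. Each of these classes of cells held the transcript. The 193 barcodes left out as too shallow or too mitochondrial held it too, with 19 UMIs or 87.7 CPM, and the part of free RNA in the shares was not tested.

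**Figure D3:**
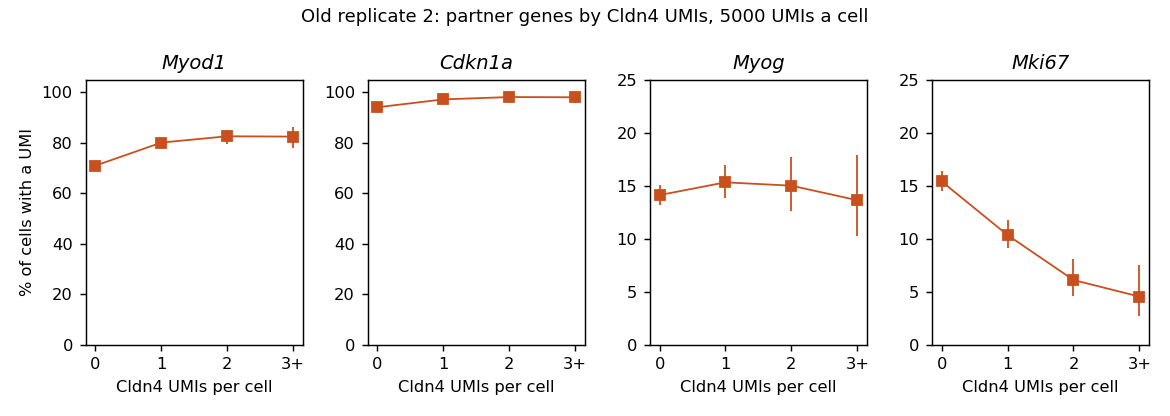
Percentage of cells of old replicate 2 with a UMI of Myod1, Cdkn1a, Myog or Mki67 (y axes, 1 panel a gene, with different ranges) by the number of Cldn4 UMIs in the cell (x axis), after thinning to 5000 UMIs; bars are 95% Wilson intervals. Mki67 goes from 15.4% at 0 to 4.55% at 3 or more UMIs, and Myod1 from 71.0% to 82.5%.

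Over all genes, Cldn4-positive and negative cells were next compared by size of difference. Of 4227 genes with a mean log2 CPM above 5, 29 differed by more than 1.5-fold between cells with and without Cldn4, which is 0.686%: 2 were higher and 27 lower in positive cells. The count was 19 at 3000 UMIs, 56 at full depth and 63 with 2 or more Cldn4 UMIs for a positive cell. The 10 lowest were Top2a, Hist1h2ap, Cenpf, Mki67, Hmgb2, Pclaf, Hist1h2ae and Atad2, of DNA replication, chromatin and mitosis, and Myl4 and Myh3, of embryonic sarcomeres. Myl4, the atrial and embryonic myosin light chain, was at 56.5 CPM in positive and 129 CPM in negative cells, a log2 ratio of -1.18 (interval -1.29 to -1.07). Top2a, topoisomerase II of dividing cells, was at 60.9 and 129 CPM. The 10 highest were Ppp1r27, Dok7, Wfs1, Nmrk2, Pdlim3, Gas6, Prl2c3, Atp1b1, Nptx1 and Ppargc1a, with log2 ratios from 0.42 to 0.64. Dok7, an adaptor of the neuromuscular synapse, was at 48.1 CPM in positive and 31.4 CPM in negative cells. Among epithelial partners, Krt18 was seen in 2.25% and 2.04% of cells, and the interval of the difference, -0.417 to 0.886 points, spans 0. Krt19 was seen in 3.06% of positive and 5.11% of negative cells, a difference of -2.05 points (-2.88 to -1.18). Krt8 was seen in 0.0977% and 0.239%, an interval of -0.323 to 0.0723 points. Tjp1 was seen in 22.0% and 22.8%, an interval of -2.58 to 1.10 points.

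Cells with Krt18 held less Myog than other cells of the same library. Positive thinned cells numbered 50 or more in 2 libraries, old replicate 2 with 180 and old replicate 3 with 565. Sums over positive and negative cells, with the library as a block, gave 161 genes higher (1.3%) and 384 lower (3.09%) at an adjusted p under 0.05 in edgeR, together 4.39% of 12415 tested. The fit has 1 residual degree of freedom from 4 sums, so its p-values rest on the spread that edgeR shares over genes more than on replicates. DESeq2 called 16 higher and 71 lower. The 10 named genes that fell most were Myh3, Smpx, Actc1, Tnnc2, Myl4, Myl1, Lmod3, Mymx, Myog and Tnnc1. Myog fell from 184 to 32.2 CPM in old replicate 2 and from 1030 to 205 CPM in old replicate 3, a log2 fold change of -2.39 (SE 0.09, edgeR adjusted p = 1.4e-139). Tnnc1, slow troponin C, fell from 121 to 13.3 CPM and from 1417 to 303 CPM. Myl4 fell from 105.1 to 11.1 CPM and from 765 to 117 CPM. Mymx, the fusion peptide myomixer, fell from 8.45 to 1.11 CPM and from 96.3 to 18.4 CPM. Myh3, embryonic myosin heavy chain, was at 37.5 CPM in negative cells of old replicate 2 and at 0 in positive ones, and went from 148 to 13.8 CPM in old replicate 3. Low values in the 180 positive cells of old replicate 2, such as that of Mymx, rest on few UMIs.

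The genes that rose most in cells with Krt18 were Mcpt8, Htra1, Gchfr, Nptx1, Syngr1, Prkg2, Hmga1, Ly6a, Mmd and Aig1, with log2 fold changes from 0.70 to 1.06. Mcpt8, a granule serine protease of basophils, rose from 52.5 to 112 CPM in old replicate 3. In old replicate 2 it went from 2.38 to 4.45 CPM, which rests on few UMIs in 180 positive cells. Ly6a, the stem cell antigen Sca-1, rose from 120 to 202 CPM and from 20.3 to 32.9 CPM. Hmga1, a chromatin protein of undifferentiated cells, rose from 46.2 to 75.6 CPM and from 50.8 to 87.8 CPM. The rule for naming asks for the same sign in both libraries, and all 20 kept their sign under the 7 alternatives, but not all kept their call. DESeq2 called 10 of the 20. It did not call Myh3, Smpx and Actc1 among those that fell, and of those that rose it called only Mcpt8, Hmga1 and Ly6a. At full depth 8 were called, and Actc1, Myh3, Myl1, Myl4, Mymx, Smpx, Tnnc1, Tnnc2, Htra1, Ly6a, Nptx1 and Syngr1 were not.

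**Figure D4:**
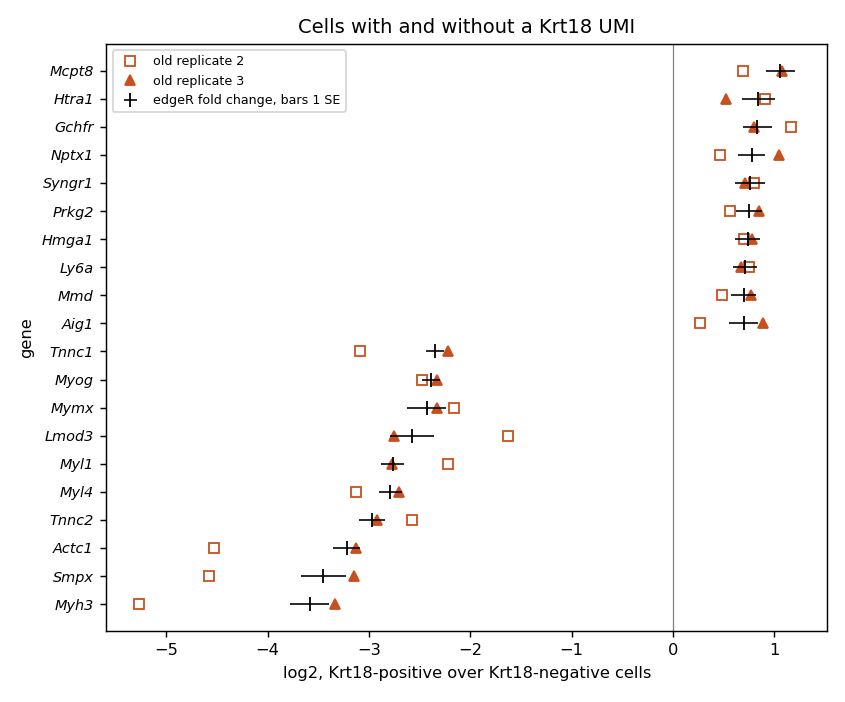
Log2 difference between cells with and without a Krt18 UMI (x axis) for the 20 named genes (y axis); squares and triangles are old replicates 2 and 3, ticks are the edgeR fold change with bars of 1 SE. Myog and Mymx lie below -2 in both libraries, Mymx from few UMIs in positive cells of old replicate 2. The 10 genes above 0 reach at most 1.16.

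By list, 4 of 10 tested myogenic markers fell with Krt18 and 0 rose: Chrna1, Mymk, Myod1 and Myog, with a list median of -0.28 beside -0.01 over all genes tested. Over all genes tested 3.09% fell and 1.3% rose, and the counts of the lists that follow stand against these shares. Myod1 fell by 0.55 on the log2 scale (SE 0.10, edgeR adjusted p = 0.000901). It was seen in 59.4% of positive and 74.9% of negative cells of old replicate 2, and in 90.6% and 92.6% of old replicate 3, where the interval of the difference, -4.72 to 0.198 points, spans 0. Myog was seen in 7.22% against 14.6%, and in 23.0% against 47.0%. Cdkn1a differed in opposite directions in the 2 libraries. It was at 1383 CPM in positive and 1675 CPM in negative cells of old replicate 2, and at 127 and 96.7 CPM in old replicate 3. It was seen in 96.7% against 95.3% of cells in old replicate 2, where the interval of the difference, -2.41 to 3.22 points, spans 0. In old replicate 3 it was seen in 27.1% against 18.0%, a difference of 9.08 points (5.51 to 13.0). The fit over both gave a log2 difference of -0.01 (SE 0.13, edgeR adjusted p = 0.993), whose sign turned with the scaling. Of 5 fibro-adipogenic markers tested, Cd34 and Ly6a rose and 0 fell. Of 4 pericyte and smooth muscle markers tested, Acta2, smooth muscle actin, fell by 1.70, and 0 rose. Of 9 mesothelial markers only Msln, which encodes mesothelin, was abundant enough to test, and it rose by 0.66 (SE 0.12, edgeR adjusted p = 1.4e-06). The other 8, Upk3b and Wt1 among them, were under 1 CPM in every library. Mesothelial cells co-express Msln and keratins, and the part of such cells was not tested.

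The epithelial genes themselves did not move as a block with Krt18. Of the 10 genes 3 others passed the filter, and Krt19 was the 1 that was called, with a log2 fold change of 1.06 (SE 0.28, edgeR adjusted p = 0.00679). It lost that call in DESeq2 (adjusted p = 0.599), with 2 or more Krt18 UMIs for a positive cell (edgeR adjusted p = 0.0872) and without the deepest 10% of cells (edgeR adjusted p = 0.0537). Krt19 was seen in 8.33% of Krt18-positive and 4.29% of negative cells of old replicate 2, and in 3.19% and 2.03% of old replicate 3, where the interval of the difference, -0.0324 to 2.97 points, spans 0. Cldn4 (0.18, SE 0.17) and Tjp1 (-0.22, SE 0.14) did not pass, with adjusted p of 0.773 and 0.551 in edgeR. Of 12 other tight junction genes tested only Jam3, a junctional adhesion molecule, fell, by 0.61. Of 13 adherens junction and desmosome genes only Perp, a desmosomal membrane protein, rose, by 0.85, though not in both libraries. Of 13 epithelial regulators and surface genes Cd24a rose, by 0.47, and none of 4 other claudins or 4 other keratins and plakins passed. Of 15 mesenchymal genes tested, 13 were not called, Zeb1, a repressor of epithelial genes, fell by 0.63, and fibronectin (Fn1) rose by 0.54.

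Krt19 allowed the same comparison in all 6 libraries, which had between 89 and 757 positive thinned cells. This comparison was added after the levels were seen. edgeR called 14 genes higher (0.103%) and 52 lower (0.381%) in positive cells, together 0.484% of 13635 tested. With the size factors of DESeq2 in edgeR the split was 29 higher and 34 lower, and DESeq2 called 22 higher and 9 lower. Without young replicate 2 edgeR called 198 genes, and without old replicate 3 it called 39. The 4 higher genes that met the rule for naming were Ly6a, Gchfr, Inhba and Thbs1. Ly6a rose from 16.5 to 47.2, 2.77 to 4.23 and 15.7 to 27.8 CPM in young replicates 1, 2 and 3. It rose from 17.9 to 56.5, 119 to 180 and 20.6 to 35.6 CPM in old replicates 1, 2 and 3, a log2 fold change of 0.93 (SE 0.13, edgeR adjusted p = 5.1e-06). Thbs1, the matrix protein thrombospondin 1, rose by 0.45 (SE 0.08, edgeR adjusted p = 0.000956). Ly6a and Gchfr were called with either keratin in edgeR. With Krt19 neither was called in DESeq2, at full depth or with 2 or more UMIs. With Krt18, Ly6a was not called at 3000 UMIs, at full depth or with 2 or more UMIs, and Gchfr was not called in DESeq2.

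Of 14 genes that fell with Krt19 and were eligible by the rule, the 10 with the largest change were Tnni1, Mymk, Dclk1, Tnnt2, Eya4, Kif11, Hmmr, Nusap1, Akt2 and Cdkn1a. Tnni1 and Tnnt2 are troponins of slow and embryonic muscle, Mymk is the fusion protein myomaker, and Kif11, Hmmr and Nusap1 act on the mitotic spindle. Tnnt2 fell by 0.74 on the log2 scale (SE 0.09, edgeR adjusted p = 7.1e-07). Mymk fell by 1.36 (SE 0.21, edgeR adjusted p = 0.00465) and Cdkn1a by 0.38 (SE 0.08, edgeR adjusted p = 0.00543). All 14 named genes kept their direction under every alternative run. The rule for naming asks for the same sign in every library used, so the kept direction is no added support. DESeq2 called 3 of the 14 and full depth 1. Of the other lists, 1 of 10 myogenic markers fell (Mymk). In turn 1 of 7 tested fibro-adipogenic markers (Ly6a) and 1 of 8 tested other keratins and plakins (Krt16) rose. Over all genes tested, 0.381% fell and 0.103% rose. Krt16 was at 17.2 CPM in positive and 0.144 CPM in negative cells of old replicate 1, and at 0 in both classes of young replicates 1 and 3 and old replicate 3. None of 5 other claudins and 15 other tight junction genes, and none of the 5 tested genes of the set, passed. Nor did any of 17 epithelial regulators and surface genes or 4 keratinocyte and gland markers. The median log2 difference was 0.47 for the set, 0.44 for other keratins and plakins, 0.58 for the regulators and 0.97 for the keratinocyte markers. It was -0.01 for other claudins and -0.16 for other tight junction genes, beside -0.06 over all genes tested. Krt18 had a log2 difference of 1.02 and Cdh1 of 1.69, with edgeR adjusted p of 0.115 and 0.158. The difference itself, old minus young, passed for 21 genes (0.154% of those tested), 8 higher (0.0587%) and 13 lower (0.0953%), and none of the set was among them.

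By share of cells, Krt19-positive cells held Mki67 less often in 6 of 6 libraries, with a mean difference of -5.09 percentage points ± 4.11 (SD, n = 6) and a two-sided exact sign-flip permutation p of 0.0312, the smallest that 6 libraries allow. Differences by library ran from -11.5 in young replicate 2 to -0.379 points in old replicate 2. Their counting intervals excluded 0 in young replicate 2 and old replicate 3 only. By level Mki67 was lower in 4 of 6 libraries and higher in young replicate 1 (62.9 against 53.0 CPM) and old replicate 2 (38.2 against 36.3 CPM), and it was not called (log2 difference -0.53, SE 0.17, edgeR adjusted p = 0.304). Myod1 was less frequent in 5 of 6 libraries, from -24.6 points in old replicate 2 to 4.54 points in young replicate 2, with a mean of -8.44 ± 9.85 (SD, n = 6, exact permutation p = 0.0938). Cdkn1a differed by -5.83 ± 8.96 points (SD, n = 6, exact permutation p = 0.125), with old replicate 1 lowest at -23.0, and the mean turned to 2.16 points at full depth. Myog differed by -5.59 ± 8.13 points (SD, n = 6, exact permutation p = 0.156). Young replicate 2, the library with the most Krt19, was the 1 library in which Krt19-positive cells held more Myod1.

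**Figure D5:**
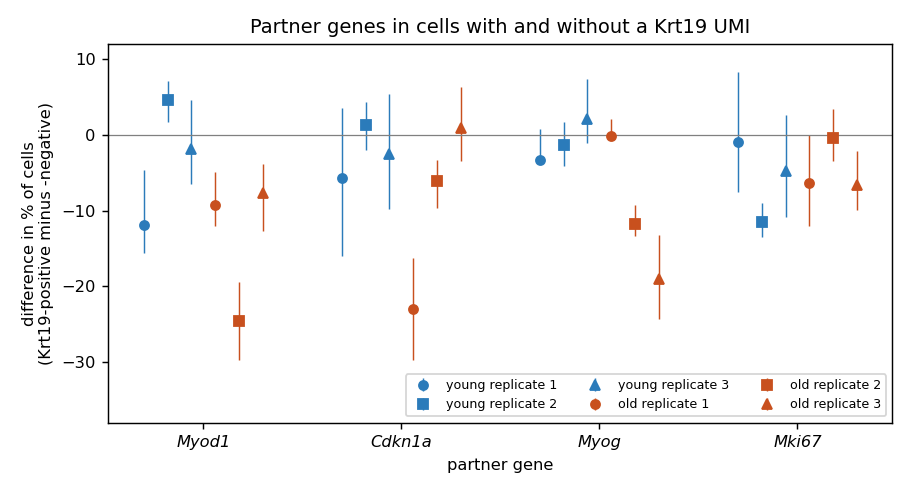
Difference in the percentage of cells with a UMI of Myod1, Cdkn1a, Myog or Mki67 (x axis) between Krt19-positive and Krt19-negative cells (y axis, percentage points), 1 point per library with its 95% Newcombe interval. All 6 points for Mki67 are below 0, while those for Myod1 spread from -24.6 to 4.54.

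Tjp1-positive cells held Mki67 more often in 6 of 6 libraries, by 2.38 percentage points ± 1.65 (SD, n = 6, exact permutation p = 0.0312). The counting interval of this Tjp1 difference excluded 0 in old replicates 1 and 3 only. The difference from Krt19 was not itself tested. Myod1 was more frequent with Tjp1 in 5 of 6 libraries, by 1.37 ± 1.19 points (SD, n = 6, exact permutation p = 0.0625), and Myog in 5 of 6, by 2.74 ± 2.99 points (SD, n = 6, exact permutation p = 0.0938). Cdkn1a differed by 0.713 ± 2.27 points (SD, n = 6, exact permutation p = 0.438). These 8 comparisons form 1 family, and none passed after Benjamini-Hochberg adjustment, the lowest adjusted permutation p being 0.125. Between old and young libraries the 8 differences gave exact permutation p of 0.3 to 0.9, where 3 against 3 cannot go below 0.1.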

How the data were processed

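Single-cell 3′ RNA sequencing gave 1 library for each of 6 cell populations, grouped as young or old by the labels. The deposited values are UMI counts per gene and cell. Per the submitters' processing notes they were made with mm10, Cell Ranger 7.2.0 and Seurat 5.134, while per the file headers 1 young and 1 old matrix, both replicate 1, came from an earlier Cell Ranger release with a shorter gene list. The 21485 shared identifiers were used, and the gene list was a term of the old against young fit. Cells with at least 1000 UMIs, at least 500 genes and under 15% mitochondrial UMIs were kept (61665 of 62849 barcodes). No doublet caller was run; an alternative left out the 10% of cells with the most UMIs. Intervals are 95%, exact Poisson for CPM, Wilson or Newcombe for shares, and cover counting error only.

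Counts summed per library were tested with edgeR 4.0.16 (R 4.3.3, quasi-likelihood, TMM, filterByExpr, robust, Benjamini-Hochberg at 0.05), with DESeq2 1.42.0 as an alternative. Cells were split by a UMI of Cldn4, Krt18 or Krt19 after thinning to 5000 UMIs and summed within libraries of 50 or more positive cells, with the library as block. At 5000 UMIs the Cldn4 test could not be run, as 1 library had enough positive cells. At full depth old replicate 3 also had enough, with 95. There edgeR called 18 genes higher and 69 lower of 13797 tested, from 2 libraries and in a split that also follows depth. Named genes are the up to 10 in each direction with the largest change among those called, with a mean log2 CPM above 5 and the same sign in every library used. For Cldn4, size replaced the call. In lists the called genes are named, or the 2 most abundant. The members and lists were chosen with earlier results of these data known. Checked on simulated data, the old against young test found few of the changes put in. The Krt19 test called some genes that were left unchanged, so part of its 66 calls may be false. The labels call the replicates biological, and p-values over all libraries measure the spread between these populations. Those of the Krt18 split rest more on the spread that edgeR shares over genes.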

Additional observations from a re-analysis of the deposited data

Results flagged for a closer look

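Barcodes left out of the main comparisons carried Cldn4 in old replicate 2. They held 19 Cldn4 UMIs, or 87.7 CPM of their own UMIs, against 0 UMIs in the left-out barcodes of the 3 young libraries and of old replicates 1 and 3. Those barcodes held 104707 to 290922 UMIs a library, too few to show Cldn4 at the level of the kept cells of those libraries.

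The Krt19 comparison differed between ages for 21 genes, 0.154% of 13635 tested by the interaction term in edgeR (8 higher and 13 lower in old). Serpinb2, an inhibitor of plasminogen activation, and the chemokine Ccl2 had positive old minus young differences of 1.94 and 1.62 on the log2 scale. The muscle genes Pdlim3, Lmod3 and Synpo2l had negative ones, of -1.59, -1.45 and -1.35. These 5 genes were picked after their values were seen.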

How the results depend on the processing

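The replicate numbers were not taken as pairs. Same-numbered young and old libraries had correlations of 0.386, 0.218 and -0.063 for their deviations, and differently numbered ones from -0.399 to 0.270. Both replicate 1 libraries also share the shorter gene list. A fit with the number as a block again called 1 gene and gave Krt18 8.29. The count of 1 gene between old and young became 237 with DESeq2, 0 without the gene list term, 0 in the 4 libraries of the longer list, and 0 to 3 when 1 library was left out. The Krt18 count of 545 became 161 with 2 or more UMIs, 299 at 3000 UMIs, 310 at full depth and 87 with DESeq2. The Krt19 count of 66, a comparison and alternatives chosen after seeing the data, became 10 with 2 or more UMIs (2 libraries), 11 at full depth, 31 with DESeq2, and 39 to 198 without 1 library. For Cldn4, 29 genes became 56 at full depth, 19 at 3000 UMIs and 63 with 2 or more UMIs; the Myod1 difference became 15.7 points at full depth that of Cdkn1a 2.07 points at 8000 UMIs, and that of Mki67 (-6.68) ran from -9.75 to -3.58. Of the 20 named Cldn4 ratios, 40 values under alternatives left their counting interval and 35 did not. Directions turned for low genes between old and young: Epcam ran from -1.37 to 0.82 without 1 library, Cdh1 from -1.81 to 0.75 and was 0.10 without the list term, Krt8 ran from -0.56 to 1.04 and was -0.54 in the longer list, and Krt19 ran from -0.29 to 1.11, with -0.075 without the list term, -0.29 in the longer list and -0.06 without the deepest cells. With Krt18, Cdkn1a (-0.01) became 0.14 with 2 or more UMIs, 0.032 with DESeq2, 0.0059 with its size factors and 0.057 without the deepest cells. With Krt19, Cldn4 (-0.33) became 0.047 at full depth, 1.29 with DESeq2, and ran from -0.40 to 1.24 without 1 library, and Tjp1 ran from -0.17 to 0.0023. The Myog difference with Cldn4 was -0.14 points at 3000 UMIs, and that of Cdkn1a with Krt19 was 2.16 points at full depth. The cause of these changes was not tested. Leaving out a library was not run for Krt18, which has 2 libraries, nor were DESeq2 and other scalings for Cldn4, which has 1. Depth limits Cldn3, Cldn6, Cldn7, Epcam, Cdh1 and Krt8, at 0 to 213 UMIs a library.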
